A study of Mus musculus with 19 samples.

Results

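A set of 8 genes of bone was followed across the libraries: Col1a1 and Col1a2, which encode the chains of type I collagen, Ibsp, Bglap, Bglap2 and Dmp1, which encode matrix proteins of mineralised tissue, Sp7, an osteoblast transcription factor, and Alpl, a phosphatase of mineralising cells. They were chosen by name, by matching mouse Ensembl gene IDs to symbols, as genes through which skull bone could leave a trace in brain tissue, and were set against Mpo, the myeloperoxidase gene of granulocyte precursors. All 8 were found among the 49671 genes of the table, and 7 of them passed the filter on low values, a normalized count of at least 10 in at least 3 of the 19 libraries, which 23973 genes passed. Bglap2 reached 10 in 2 libraries and was not tested. The names were picked with earlier results of these libraries known, so their levels are given as a description, and a test on them is not independent evidence.

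The samples were brain homogenates enriched for microglia, the resident macrophages of the brain, from 19 mice on the B6D2F1/J background. HEM mice carried a transgene for full-length human wild-type alpha-synuclein on the X chromosome, driven by the murine Thy-1 promoter, a promoter mostly used to reach neurons, and WT mice were their controls. There were 8 HEM and 4 WT mice of 13 months, and 4 HEM and 3 WT mice of 3 months, with 1 library per mouse, and no other allele or agent is named for any group. A mouse is named here by its group and by the number in its label. The numbers on the deposited data run in another order than those in the labels, so which animal a number stands for rests on the deposit's own match of data to labels, while age and genotype are the same in both. In a homogenate, fewer cells of a type and less RNA per cell cannot be told apart.

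Osteoblasts lay down a matrix of type I collagen and then mineralise it. Collagen genes are active in many fibroblasts, whereas bone sialoprotein (Ibsp) and osteocalcin (Bglap, Bglap2) mark mature osteoblasts, and Dmp1 marks osteocytes, the cells buried in bone. Sp7 acts downstream of the factor Runx2 in osteoblast formation. Alpl, the tissue-nonspecific alkaline phosphatase, clears an inhibitor of mineral growth and is also made by endothelial cells of brain vessels. The skull encloses marrow, in which neutrophils are formed, and Mpo is made in their precursors before they leave it.

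Several of these genes are neighbours in the genome (mm10, GENCODE M21). Bglap lies at chr3:88383501-88384464 and Bglap2 at chr3:88377736-88378699, both on the minus strand, 4.8 kb apart. Their coding sequences are shown because reads can fall on either gene: both are 288 bases long, and 284 of the 288 bases, 98.6%, are identical. Capitals mark the 4 positions that differ.
Bglap coding sequence: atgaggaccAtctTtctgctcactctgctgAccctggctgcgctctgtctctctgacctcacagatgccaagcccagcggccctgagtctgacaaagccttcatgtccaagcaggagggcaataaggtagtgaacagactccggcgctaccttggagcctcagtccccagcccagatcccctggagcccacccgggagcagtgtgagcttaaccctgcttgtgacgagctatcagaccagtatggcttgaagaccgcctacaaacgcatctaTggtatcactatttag
Bglap2 coding sequence: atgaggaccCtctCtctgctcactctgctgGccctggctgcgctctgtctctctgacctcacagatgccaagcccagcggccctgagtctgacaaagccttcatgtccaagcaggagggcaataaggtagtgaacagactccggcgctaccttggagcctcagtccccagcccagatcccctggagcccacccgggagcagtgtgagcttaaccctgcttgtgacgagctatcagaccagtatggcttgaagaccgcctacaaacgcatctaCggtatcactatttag
Of the windows of 100 bases in the Bglap transcript, 56.3% occur unchanged in the Bglap2 transcript. How the authors' counting treated reads that match both genes is not given in the sources used here, so the split of reads between them is uncertain.

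Ibsp lies at chr5:104299171-104311469 on the plus strand and Dmp1 at chr5:104202613-104214102, also on the plus strand, 85.1 kb before it. They belong to a row of genes for acidic phosphoproteins of bone and tooth, ordered Dspp, Dmp1, Ibsp, Mepe and Spp1. The other members are Col1a1 at chr11:94936224-94953042 and Col1a2 at chr6:4504814-4541544, both on the plus strand, and Sp7 at chr15:102356606-102367182 and Alpl at chr4:137741733-137796384, both on the minus strand. No member shares exon bases with another annotated gene.

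Promoter windows, 250 bases before to 50 after a start site, were found in RefSeq (GRCm38.p6) for 5 of the 8 genes, with 7 windows in all, since Dmp1 and Alpl have 2 starts each. The windows of Bglap and Ibsp are shown because these are the genes whose levels spread most between libraries. Capitals mark the matches of a pair of motifs searched on both strands, which do not overlap each other here. The first is the core bound by Runx factors, spelled ACCACA. The second is the TATA box, for which the letters TATAAA were searched, and a match on the reverse strand is printed as its complement.
Bglap promoter, chr3:88384417-88384716, minus strand: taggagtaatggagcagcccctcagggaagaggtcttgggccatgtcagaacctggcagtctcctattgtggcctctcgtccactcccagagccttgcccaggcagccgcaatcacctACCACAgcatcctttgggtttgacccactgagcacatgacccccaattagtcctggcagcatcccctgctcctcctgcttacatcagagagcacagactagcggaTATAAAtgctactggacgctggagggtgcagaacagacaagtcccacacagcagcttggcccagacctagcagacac
Ibsp promoter, chr5:104299037-104299336, plus strand: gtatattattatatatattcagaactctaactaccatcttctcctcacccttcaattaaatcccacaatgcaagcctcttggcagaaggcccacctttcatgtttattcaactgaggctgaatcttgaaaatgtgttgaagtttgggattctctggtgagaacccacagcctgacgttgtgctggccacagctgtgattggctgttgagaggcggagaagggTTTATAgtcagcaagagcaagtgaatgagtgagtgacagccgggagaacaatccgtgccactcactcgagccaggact
In the Bglap window the Runx core begins 132 bases and the TATA box 27 bases before the start site. The Ibsp window holds the TATA letters on the reverse strand, 28 bases before the start, and no Runx core. Of the 5 windows not shown, 1 of Dmp1 holds the Runx core and 1 of Alpl the TATA letters on the reverse strand. Over all 32851 windows of this length, 16.8% held the Runx core and 13.6% the TATA letters on either strand, and a match describes letters and no binding.

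The libraries held 63273388 to 124518160 reads in genes. Values are the deposited normalized counts, gene counts divided by 1 factor per library, so that 1 read stood for a value between 0.700 and 1.40. A count of 0 allows up to 3 reads, a value of 2.10 to 4.21 depending on the library, and this covers counting error only. Microglia genes were high in every library, the summed level of 12 markers running from 633792 to 1609079. The libraries of HEM replicates 1 and 11 of 13 months and HEM replicate 3 of 3 months are called here the 3 that stand apart. Their median correlations with the libraries of their own group were 0.945, 0.958 and 0.968 (r over log2 values of genes), the lowest within their group. Every group has a lowest library, and 0.968 was above the 0.961 of HEM replicate 3 of 13 months. The choice of these 3 is thus a loose one. Calls that change without these 3 are given with and without them.

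The 8 genes ran from abundant to scarce. Per kilobase of exon, the mean level over 19 libraries was 2550 ± 791 (SD, n = 19) for Alpl, 2509 ± 1000.7 for Col1a1 and 2049 ± 554 for Col1a2. Mean ± SD of these 3 overlapped, which is a spread between libraries and no comparison of the genes within a library. On the same scale Dmp1 stood at 414 ± 166 and Sp7 at 49.6 ± 16.4. The next levels were 46.2 ± 156 for Bglap, 32.3 ± 92.9 for Ibsp and 12.5 ± 35.9 for Bglap2, with SDs larger than the means. Mpo stood at 2515 ± 3192 per kilobase.

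Bglap, Bglap2 and Ibsp, the scarce set, drew most of their signal from a single library. HEM replicate 13 of 13 months held 78.4% of the summed Bglap value of all 19 libraries, 66.6% of that of Bglap2 and 65.7% of that of Ibsp. For the other 5 genes the highest library held between 8.25% and 11.1% of the sum. So these 5 genes were spread over all libraries, at least 84.3 in every library for Sp7 and 4450 or more for Alpl. Ibsp, Bglap and Bglap2 were at or near the limit of counting in most of them. Sp7 differed from the scarce set in its even spread, since its mean per kilobase, 49.6, was near the 46.2 of Bglap. Against the name of the set, Ibsp, Bglap and Bglap2, which mark mature osteoblasts, were thus barely counted outside a few libraries. Collagen and Alpl, which other cells also make, were abundant in all 19. Dmp1, at 493 or more, and Sp7 were also counted in all 19, and which cells made them was not tested.

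**Figure D1:**
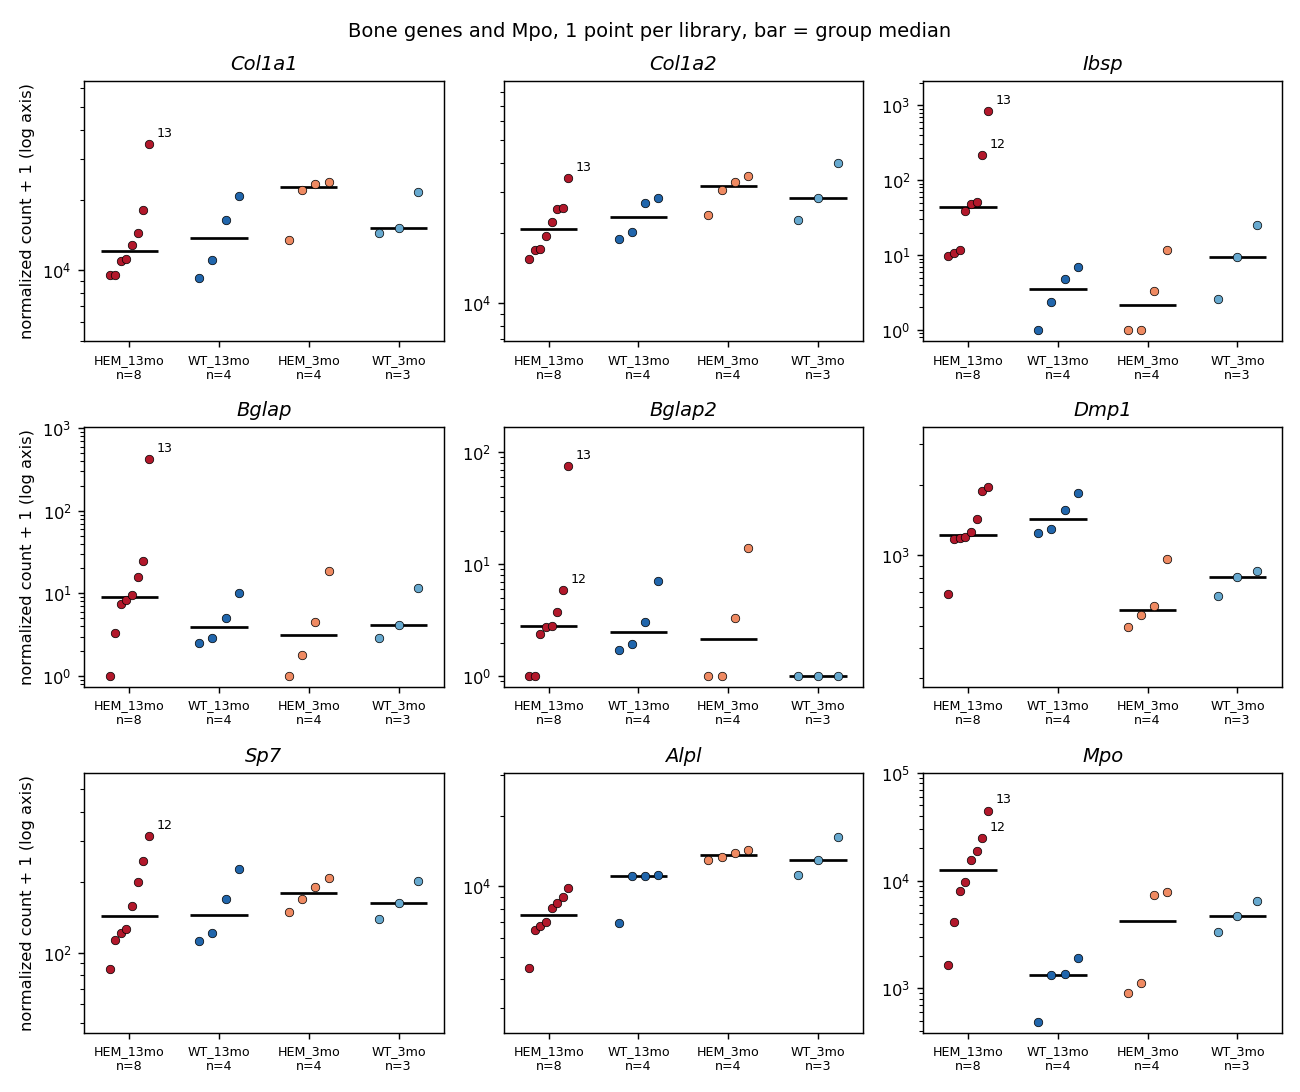
Normalized count plus 1 on a log axis for the 8 bone genes and Mpo, with 1 point per library, in 8 HEM and 4 WT mice of 13 months and 4 HEM and 3 WT mice of 3 months. Bars are group medians and the numbers 12 and 13 mark these HEM replicates in the panels where they are labelled. Replicate 13 is the highest point for Ibsp (835), Bglap (426), Bglap2 (74.6), Col1a1 (34597) and Mpo (44558).

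Ibsp, bone sialoprotein, binds collagen and seeds mineral. In the 13-month HEM mice its normalized count ran from 8.67 to 835 with a median of 42.2. Replicate 13 held 835, replicate 12 held 213, replicates 11, 1 and 8 held 49.8, 46.8 and 37.6, and replicates 4, 7 and 3 held 10.6, 9.82 and 8.67. In the 13-month WT mice it was 1.40, 3.73, 6.02 and 0 in replicates 6, 7, 8 and 9, from 14 reads in all. Every 13-month HEM library thus lay above every WT library of that age in normalized count. In reads they overlapped: HEM replicates 4, 7 and 3 held 10, 7 and 10 Ibsp reads, and WT replicate 8 held 8. The separation of the lowest HEM libraries thus rests on few reads and on the scaling.

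At 3 months the values were 10.7, 2.34, 0 and 0 in HEM replicates 1, 3, 4 and 7. The WT mice of 3 months gave 24.3, 8.39 and 1.59 in replicates 1, 3 and 5. These groups overlapped, and the highest WT value at 3 months exceeded the 3 lowest HEM values at 13 months.

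Bglap and Bglap2 encode osteocalcin, a small protein that binds calcium and is secreted by mature osteoblasts. Bglap reached 426 in HEM replicate 13 of 13 months, from 331 reads. The other 7 libraries of that group held from 0 to 23.5, with 14.7 in replicate 3 and 8.53 in replicate 12. The WT mice of 13 months had 9.10, 1.87, 1.51 and 4.04. Values at 3 months were 17.9, 3.51, 0.767 and 0 in HEM and 10.6, 1.86 and 3.19 in WT. Leaving replicate 13 aside, all 4 groups overlapped.

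Bglap2 was at 74.6 in the same library, from 58 reads. In the other 13-month HEM libraries it ran from 0 to 4.87. The 13-month WT values were 0.700, 0.933, 6.02 and 2.02. In HEM mice of 3 months it was 0, 12.9, 2.30 and 0, and no read was counted in any of the 3 WT libraries of that age. Replicate 13 held 5.79 times the next highest Bglap2 value and 18.1 times the next highest Bglap value.

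Dmp1 encodes a phosphoprotein of osteocytes that takes part in mineralisation. It did not follow Ibsp or Bglap: in the 13-month HEM mice it ran from 680 in replicate 3 over a median of 1226 to 1966 in replicate 1, and replicate 13, at 1196, was below the median. The 13-month WT mice had 1858, 1296, 1565 and 1252, within the HEM range. At 3 months the values were 557, 608, 961 and 493 in HEM and 806, 859 and 670 in WT. The WT mice of 13 months were all above the WT mice of 3 months, and 7 of 8 HEM mice of 13 months were above every HEM mouse of 3 months.

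Sp7, osterix, is needed to turn a precursor into an osteoblast. In the 13-month HEM mice it ran from 84.3 over a median of 142 to 313, the highest value being that of replicate 12, while replicate 13 held 112. WT mice of 13 months had 168, 120, 227 and 111. HEM mice of 3 months had 148, 207, 189 and 169, and WT mice of that age had 138, 202 and 162. All 4 groups overlapped.

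Alpl acts at the cell surface of osteoblasts and of brain capillaries. In the 13-month HEM mice it ran from 4450 in replicate 4 over a median of 7560 to 9842 in replicate 3. WT mice of 13 months had 11049, 6997, 11099 and 11183, so that 3 of 4 lay above all HEM mice of that age. At 3 months the HEM values were 12951, 13315, 14302 and 13855, and the WT values 11179, 16293 and 12964. Every 13-month HEM library was below every 3-month library of either genotype.

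Col1a1 and Col1a2 encode the chains that wind into the fibres of bone, skin and the meninges. Col1a1 in the 13-month HEM mice ran from 9560 over a median of 12030 to 34597 in replicate 13, and the next highest, replicate 11, held 18102. WT mice of 13 months had 11108, 9292, 20705 and 16453. HEM mice of 3 months had 22115, 23909, 23346 and 13487, and WT mice of 3 months 14376, 21639 and 15235. Replicate 13 was the highest of all 19 libraries, at 1.45 times the next.

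Col1a2 in the 13-month HEM mice ran from 15437 over a median of 20862 to 34435, again in replicate 13. WT mice of 13 months had 20236, 18787, 26767 and 28243. At 3 months HEM mice had 30641, 33121, 34932 and 23830, and WT mice 22746, 39929 and 28093. Here replicate 13 did not stand out from the 3-month libraries. Over the 19 libraries, with each group's mean subtracted, the log2 levels of the chains had a Pearson r of 0.908 and a Spearman rho of 0.870, a description over libraries that share their depth scaling and, for each group, its mean.

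HEM was compared with WT at 13 months to ask which genes differed with the transgene in older mice. Of the 7 bone genes tested, Ibsp rose and the other 6 did not pass the test. Ibsp was higher by 3.95 ± 1.08 (SE) on the log2(value + 1) scale, adjusted p = 0.0214 (limma-trend over all 23973 genes, Benjamini-Hochberg), with group means of 151 ± 284 (SD, n = 8) in HEM and 2.79 ± 2.65 (SD, n = 4) in WT. In this comparison 12.2% of all genes were called, 4.87% higher and 7.3% lower, beside 1 of 7 bone genes. Groups without overlap in normalized count and HEM higher, as for Ibsp, were found for 2.69% of genes. The median change of the 7 genes was 0.01, beside 0.03 for all genes.

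Ibsp passed the filter on low values through the group where it was high, since 6 of the 8 libraries at 10 or more were 13-month HEM libraries. The call was also made by edgeR (5.67, adjusted p 0.0230) and by DESeq2 (5.75, adjusted p 0.000329). It was lost in 1 of 19 refits that each dropped a library. Those that dropped a 3-month library left the change at 3.95, since such a library enters only the shared estimate of the spread. Dropping WT replicate 6 or 7 of 13 months gave an adjusted p of 0.0489 or 0.0466 (limma). Without the WT library at 0, replicate 9, the change was 3.42 and the adjusted p 0.0922 (limma), and with a pseudocount of 10 they were 2.31 and 0.0564. Without replicates 12 and 13 of HEM together, a choice made after the values were seen, it was 2.88 with an adjusted p of 0.0438, and without the 3 libraries that stand apart it was 3.91 with an adjusted p of 0.0548.

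The remaining 6 genes gave small or uncertain values at 13 months. Alpl differed by -0.43 ± 0.17 with an adjusted p of 0.118 (limma), which became -0.60 and 0.0450 without WT replicate 7. Bglap differed by 1.40 ± 1.14 with an adjusted p of 0.513. Changes of Col1a1 (0.01 ± 0.29), Col1a2 (-0.12 ± 0.20), Dmp1 (-0.19 ± 0.23) and Sp7 (0.05 ± 0.30) were all smaller than their standard errors.

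Mpo and other marrow markers moved with Ibsp in this comparison. Mpo was higher in 13-month HEM mice by 3.23 ± 0.74 (adjusted p = 0.00806, limma), its values running from 1666 over a median of 12559 to 44558, against 1925, 1318, 1369 and 487 in WT, where HEM replicate 3 lay below 1 WT mouse. The 9 granulocyte precursor genes were called higher 9 of 9 times, beside 4.87% of all genes, with a median change of 3.07. Their summed level ran from 6716 to 102830 in HEM and from 2528 to 8456 in WT. Examples are Gfi1 (2.17), a regulator of granulocyte formation, Ctsg (3.28) and Elane (3.57), proteases of the primary granules. With the log2 level of Mpo as a covariate, the change of Ibsp was 0.69 with an adjusted p of 0.862 (limma). That fit called 0 of 23973 genes at 13 months, with 3114 at an unadjusted p under 0.05, where the fit without the covariate called 2918, so the lost call is not particular to Ibsp.

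Other genes of blood cells and their precursors were higher as well. Called higher were 10 of 12 mature neutrophil genes, 5 of 12 erythroid genes and 4 of 8 megakaryocyte and platelet genes, and 0 were called lower. Over all genes 4.87% were called higher and 7.3% lower. Their median changes were 1.88, 1.04 and 0.88. Camp (2.42), an antimicrobial peptide of neutrophils, and Slc4a1 (2.04), the anion exchanger of red cells, are examples. The summed level of the neutrophil genes ran from 97736 to 617660 in HEM and from 69254 to 140846 in WT mice of 13 months. The part of these cells in the Ibsp result was not tested. The fit with Mpo as a covariate called no gene at 13 months, so it cannot serve as that test.

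Few genes of the wider osteoblast list were called at 13 months. Of 35 further genes of the lineage, 33 were tested, 1 was called higher and 1 lower, beside 12.2% of all genes called, and their median change was 0.18, beside 0.03 for all genes. Runx2, the master regulator of osteoblast formation, which is also active in other cells, was higher by 1.02 ± 0.20 (adjusted p = 0.00398, limma), with 659 to 1465 in HEM and 463 to 572 in WT. Sparc, which encodes osteonectin, a protein also made by brain cells, fell by 0.40 (adjusted p = 0.0440). Mepe, an osteocyte protein, was at 0 in all 19 libraries, Dkk1 was at 0 in 12, and the osteocyte products Sost and Fgf23 had medians of 9.22 and 5.24 in 13-month HEM mice.

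Cells that live beside osteoblasts were followed by their own lists. Of 14 osteoclast genes, Mmp9 rose by 1.43 ± 0.40 (adjusted p = 0.0234, limma), a protease also stored in neutrophils, Car2 fell by 0.67, and Acp5 and Ctsk, which define the osteoclast, did not pass (0.33 and -0.15). None of 14 cartilage genes was called, among them Col9a3 and Sox9. Of 10 bone marrow stroma genes 0 rose and Lepr fell by 0.60. Of 20 genes of meningeal and perivascular fibroblasts, which also make type I collagen, 0 rose and 2 fell, Igf2 by 1.05 and Slc22a6 by 1.18, with a median of -0.19.

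Lists for other tissues that dissection or enrichment could carry gave few calls at 13 months. Of 13 skeletal muscle genes 0 were called, of 6 skin genes Krt1 fell by 1.03, and of 10 pericyte and smooth muscle genes Tagln rose by 1.23. Neither the 12 microglia genes, nor the 12 endothelial genes, nor the 10 neuronal genes held a call in either direction, with medians of -0.24, 0.20 and 0.19.

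**Figure D2:**
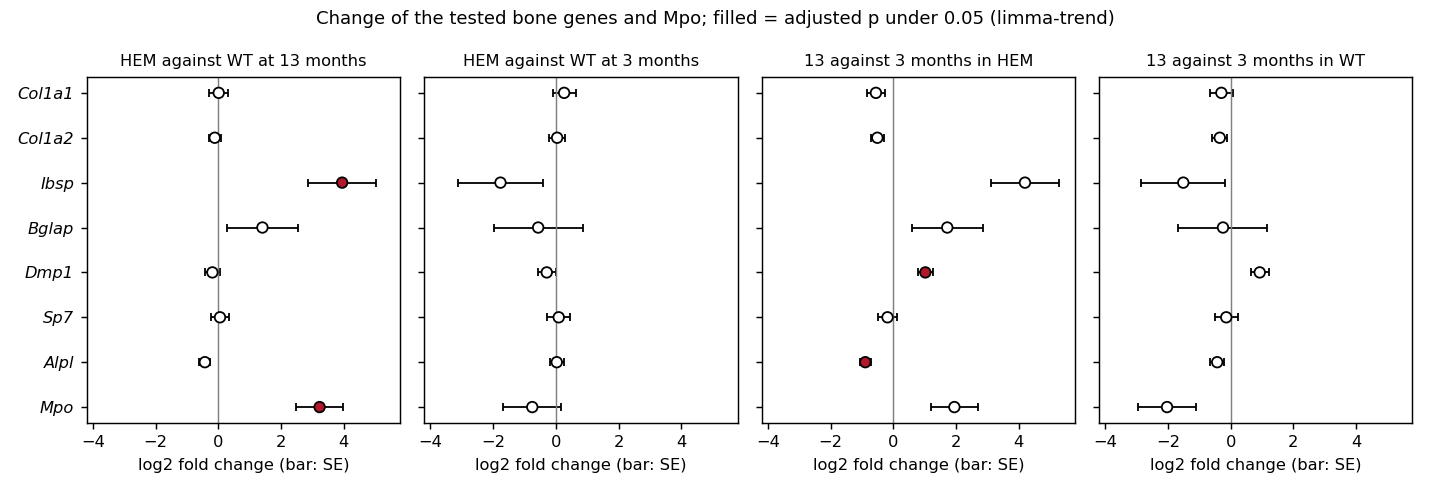
Log2 fold change of the 7 tested bone genes and Mpo in 4 comparisons, from limma-trend on log2(value + 1), with bars for the standard error and filled points for an adjusted p under 0.05. Ibsp (3.95) and Mpo (3.23) are filled for HEM against WT at 13 months, and Dmp1 (1.03) and Alpl (-0.89) for 13 against 3 months in HEM.

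HEM was also compared with WT at 3 months. None of the 7 bone genes was called, as 0.0% of all genes were, and at an unadjusted p under 0.05 the counts were 0 of 7 bone genes and 924 of 23973 genes (limma). Neither edgeR nor DESeq2 called a bone gene here. The direction of Ibsp was toward WT, at -1.77 ± 1.35, as was that of Mpo, at -0.75 ± 0.92. Changes of the other 6 genes ran from -0.56 ± 1.42 for Bglap to 0.27 ± 0.37 for Col1a1.

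The difference of the genotype effects between the ages was 5.71 ± 1.72 for Ibsp with an adjusted p of 0.131, and 3.98 ± 1.18 for Mpo with an adjusted p of 0.127 (limma). This test called 0.0% of all genes and 0 of 7 bone genes, with 3551 genes and 1 bone gene at an unadjusted p under 0.05. By edgeR 0 bone genes were called and by DESeq2 1, Ibsp, with a change of 7.55 and an adjusted p of 0.0166. The genotype effect on Ibsp is therefore not shown to differ between the ages by the main test.

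Age was compared within each genotype, in fits that share libraries with the genotype comparisons. In HEM mice 1 of 7 bone genes rose and 1 fell from 3 to 13 months, where 1.62% of all genes were called, 0.934% higher and 0.684% lower. Dmp1 rose by 1.03 ± 0.23 (adjusted p = 0.0311, limma), from a mean of 655 to 1349. Alpl fell by 0.89 on the log2 scale (SE 0.17, adjusted p = 0.0175), from a mean of 13606 to 7523, and 1.36% of genes had groups without overlap in that direction. Ibsp differed by 4.20 ± 1.08 with an adjusted p of 0.0540, and Col1a2 by -0.51 ± 0.20 with 0.200. For Ibsp the adjusted p was 0.00235 by DESeq2, with a change of 5.53, 0.0498 with a pseudocount of 0.5 and 0.0791 by edgeR.

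Without HEM replicate 1 of 3 months neither passed (adjusted p 0.109 for Dmp1 and 0.0610 for Alpl, limma), without replicate 3 or replicate 7 Dmp1 did not (0.0665 and 0.101), and without replicate 4 Alpl did not (0.0580). Dmp1 also missed the threshold when the HEM groups were fitted alone (0.0801) and without HEM replicates 12 and 13 of 13 months (0.0774). Ibsp passed it without HEM replicate 3 or 7 of 13 months (0.0307 and 0.0484). Without the 3 libraries that stand apart the values were 0.93 for Dmp1 (adjusted p 0.102) and -0.91 for Alpl (0.0596).

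In WT mice no bone gene passed the age comparison, in which 0.709% of genes were called, 0.463% higher and 0.246% lower. Dmp1 differed by 0.93 ± 0.29 with an adjusted p of 0.109 and without overlap between the ages, a pattern that 8.83% of genes showed in the same direction. By DESeq2 its adjusted p was 0.0313, while edgeR called 0 bone genes. At an unadjusted p under 0.05 the counts were 1 of 7 bone genes and 3714 of all genes (limma). Alpl differed by -0.43 ± 0.22 with an adjusted p of 0.357.

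Genes of brain endothelium, a source of Alpl, were read beside it. Of 12 brain endothelium genes, 4 fell in HEM mice, Cdh5 by 1.18, Kdr by 1.44, Bsg by 0.71 and Slco1c1 by 0.86, and 0 rose. Their summed level ran from 246042 to 583255 in HEM mice of 13 months and from 538787 to 981218 at 3 months. In WT mice 0 of 12 were called, with a median change of -0.93, beside -0.92 in HEM. Their part in the Alpl result was not tested. Among further osteoblast genes 0 rose and Cpz fell by 1.67 in HEM.

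Ibsp was read against Mpo mouse by mouse. In the 8 HEM libraries of 13 months replicates 13 and 12 ranked first and second for both, and replicate 3 ranked last for both. Pearson's r of the log2 levels was 0.789 and Spearman's rho 0.786 over these 8 libraries, and r was 0.587 without replicates 13 and 3, the libraries farthest from the median of Mpo. Over all 19 libraries, with each group's mean subtracted, r was 0.709 and rho 0.613, and r was 0.569 without the same 2. The libraries share their depth scaling, and because Mpo was part of how the genes were chosen these values are descriptions with no test.

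For each 1000 Mpo reads there were 18.7 Ibsp reads in replicate 13, 8.65 in replicate 12, 6.20 in replicate 11, 5.20 in replicate 3 and 4.86 in replicate 1. Replicates 7 and 8 had 2.36 and 2.01, and replicate 4, at rank 4 in Mpo with 15496, had 0.682. In WT mice of 13 months the ratio ran from 0 to 4.40, in HEM mice of 3 months from 0 to 1.37, and in WT mice of 3 months from 0.247 to 7.26, each from 23 Ibsp reads or fewer. The ratio of the genes thus differed between libraries, and replicate 4 was high in Mpo and low in Ibsp.

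**Figure D3:**
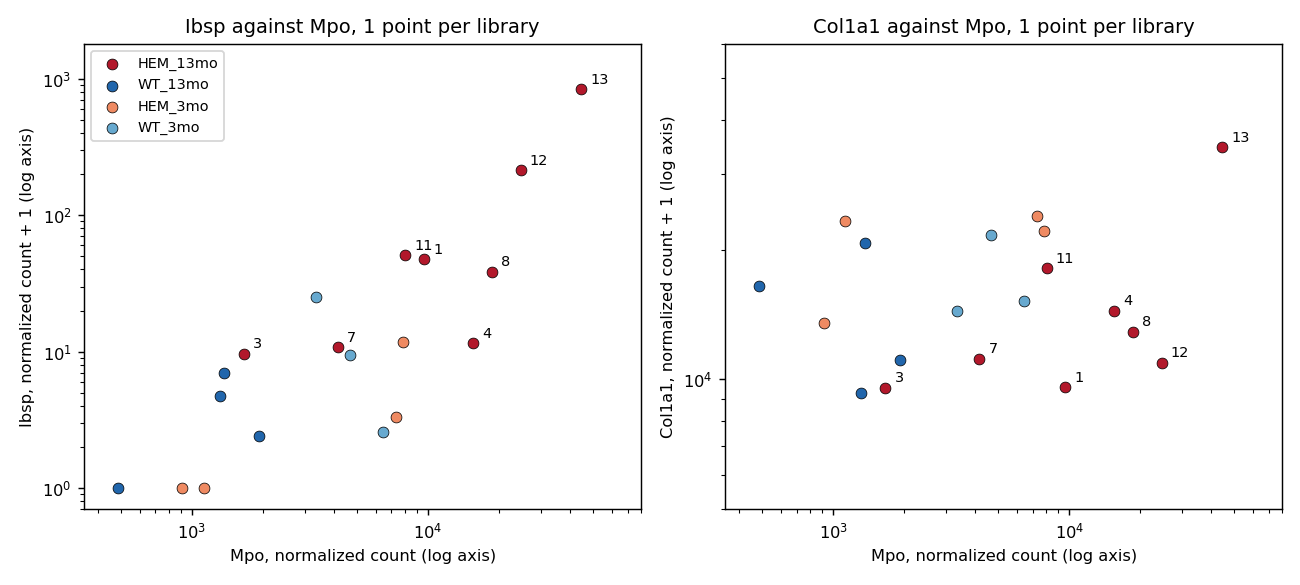
Ibsp plus 1 (left) and Col1a1 plus 1 (right) against Mpo, all as normalized counts on log axes, with 1 point per library and colours for the 4 groups, and numbers are HEM replicates of 13 months. Ibsp climbs with Mpo to 213 in replicate 12 and 835 in replicate 13, while Col1a1 stays between 9292 and 23909 in all libraries other than replicate 13.

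Other bone genes were read against Mpo in the same way. Over the 8 HEM libraries of 13 months r with Mpo was 0.684 for Col1a2, 0.617 for Col1a1, 0.443 for Bglap, 0.448 for Bglap2, 0.283 for Dmp1, 0.054 for Sp7 and -0.185 for Alpl. Without replicates 13 and 3 the r of Col1a1 was -0.023 and that of Bglap2 -0.085, so these values rested on those 2 libraries. The same step took Dmp1 to -0.602 and Sp7 to 0.401, and Col1a2 to 0.379. The mean log2 level of the 7 tested genes had an r of 0.707 and a rho of 0.714 with Mpo over the 8 libraries, and an r of 0.583 without the same 2. With group means subtracted it was 0.683 over 19 libraries. With Ibsp, r over the 8 libraries was 0.837 for Bglap2, 0.733 for Bglap, 0.667 for Col1a1 and 0.622 for Col1a2. It was 0.316 for Alpl, 0.035 for Dmp1 and -0.019 for Sp7. Bglap2 had at most 4 reads in each of these libraries other than replicate 13. Without replicates 13 and 7 the r of Ibsp with Bglap was -0.039, so it rested on those libraries. Without replicates 13 and 12 the r of Ibsp was 0.328 with Col1a1 and 0.351 with Col1a2, so these values also rested in part on 2 libraries.

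HEM replicate 13 of 13 months was the library in which the scarce bone genes appeared at once. It was the highest of 19 libraries for 1763 of 23973 genes, 7.35%, and for 3 of the 7 tested bone genes. It held at least 3 times the next highest value for 14 genes, 0.0584% of those tested, and Bglap and Ibsp were 2 of these. The comparison was made after the values were seen, and it describes a library and not a condition.

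Among the 14 were also Mmp13, the collagenase of osteoblasts and growth cartilage, and Vdr, the vitamin D receptor, which controls Bglap. Mmp13 was at 1379 in replicate 13, 302 in replicate 12, between 28.6 and 302 in the other 7 HEM libraries of 13 months, and between 27.9 and 62.5 in WT mice of that age. Vdr was at 423, with 127 as the next highest value. Armc12, Slc5a2, Serpina3h and Serpina3i and 4 antigen receptor segments of B and T cells were others on this list. Bglap3, another osteocalcin gene of the cluster, held 167 in replicate 13 and 102 in replicate 1, and part of its reads may be shared with its neighbours.

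Further genes of the osteoblast list were highest in replicate 13 in 4 of 33 cases, 12.1%, beside 7.35% of all tested genes. They were Phex, Bglap3, Wif1 and Mmp13. Adipoq, adiponectin, a product of fat cells and of marrow stroma, was at 212 there and at 104 in replicate 12, against a median of 4.18 in the other 18 libraries. It was the only 1 of 10 bone marrow stroma genes that was highest there. Of the same list, Cxcl12 and Lepr were below their medians of the other 18 libraries, and Vcam1 and Esm1 were above. Of 9 granulocyte precursor genes 6 were highest in this library and of 12 erythroid genes 4. The counts were 0 of 12 mature neutrophil genes, 0 of 14 osteoclast genes, 0 of 14 cartilage genes and 0 of 20 fibroblast genes. In lists this small, 0 is near the share of 7.35% over all tested genes. Spp1, osteopontin, neighbour of Ibsp and a product of activated microglia too, held 7436, near the 13-month HEM median of 7059. Dspp, the tooth gene at the other end of the row, held 30.9, and the highest value of any library was 32.9.

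**Figure D4:**
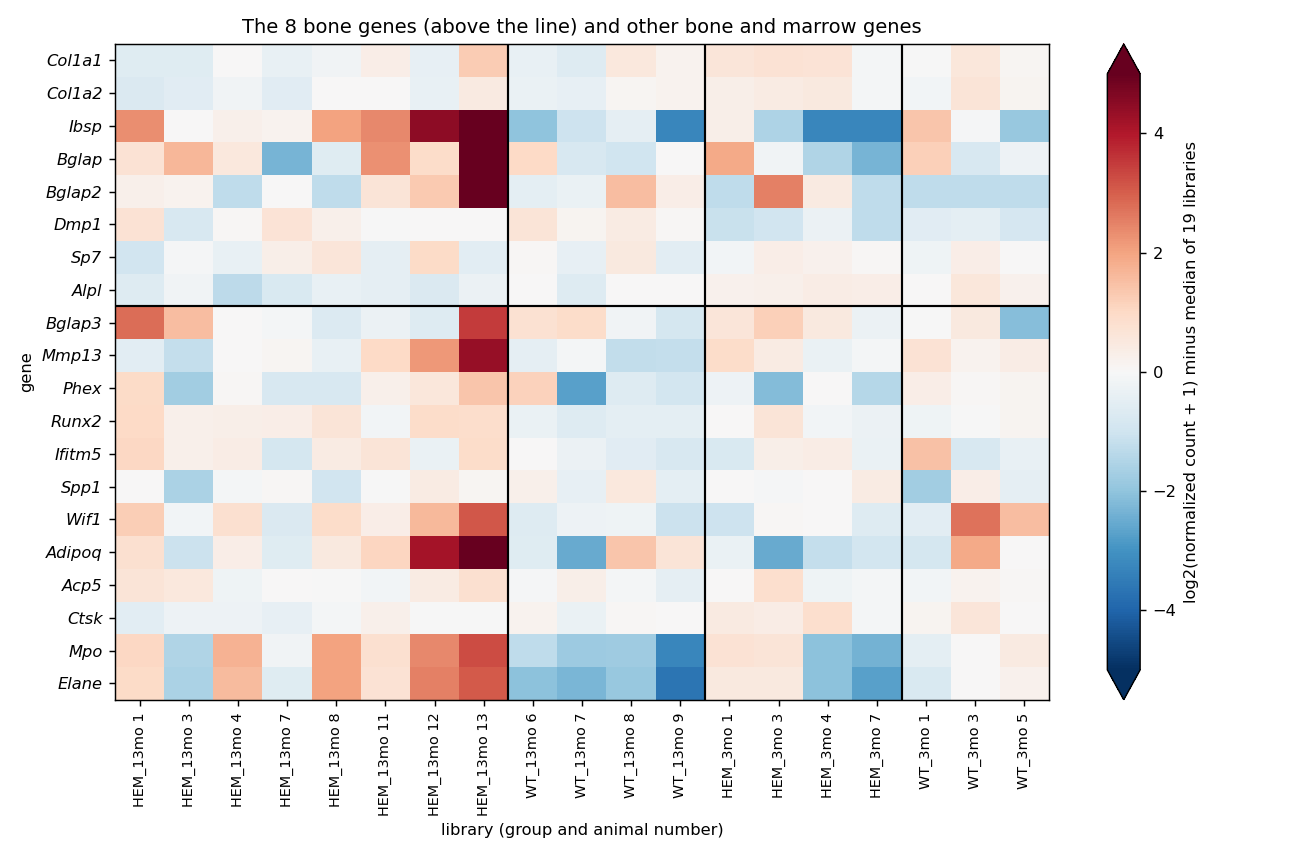
Log2(normalized count + 1) minus its median over the 19 libraries, for the 8 bone genes (above the line) and 12 bone and marrow genes chosen after their values were seen (below it), with 1 column per library ordered by group; red is above and blue below the median, and colours saturate at 5. Ibsp, Bglap, Bglap2, Mmp13, Adipoq and Mpo are red in HEM replicate 13 of 13 months, while Dmp1, Sp7 and Alpl are near 0 there.

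The genes whose pattern was most like the mean of the 7 bone genes were ranked by Pearson's r of log2 levels over the 19 libraries, with group means subtracted, among 15070 genes with a mean log2 level of at least 5. The first 10 were Alyref (0.869), Irx3 (0.816), Mmp13 (0.811), Slc22a3 (0.797), Arf6 (0.789), Chek1 (0.786), Acot12 (0.783), Cebpb (0.780), Cks1b (0.766) and Frat2 (0.765). All 10 were highest in replicate 13, beside 7.35% of all tested genes. The mean they were ranked by was itself highest there, at 11.3 against 9.99 in replicate 12. The ranking thus favoured genes that peak in that library, and their peak there is no separate result. Mmp13 was the 1 of them on the osteoblast list.

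The same measure was taken for each of the 7 tested genes, a ranking added after the values were seen. Closest to Col1a1 was Col1a2 (0.908), followed by Aebp1 (0.793), a protein that binds collagen, and Col6a2 (0.789). Sp7 came closest to Id3 (0.910), Igfbp7 (0.869) and Sox18 (0.850), which are expressed in endothelium, and Dmp1 to Kcnj16 (0.820), Glud1 (0.812) and Sox21 (0.809). For Ibsp the first were Kif18a (0.837), Alyref (0.830) and Dut (0.818), and for Alpl the first, Zfp212, reached 0.784. Col1a2, whose first was Col1a1, also had Aebp1 and Col6a2 among its first 3. Bglap2, which was not tested, was not ranked.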

How the data were processed

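RNA from 19 microglia-enriched brain homogenates was extracted with an AllPrep kit and sequenced from NEBNext Ultra II RNA libraries, per the labels' protocols. The submitters' processing notes name Trimmomatic, HISAT2, featureCounts, DESeq2 and the build mm10. Versions, annotation and strand setting are not given in the sources used here. Each value is a normalized signal as deposited: a read count that the authors scaled by a size factor, from which 100% whole reads were recovered (tolerance 0.01). Symbols for 99.3% of IDs came from GENCODE M21.

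The filter asked for 3 libraries at 10 or more. The test, two-sided, was limma-trend with robust variances (limma 3.58.1 in R 4.3.3) after adding a pseudocount of 1 and taking log2, which understates changes of low genes. The 4 groups shared 1 model, and p-values were adjusted by Benjamini-Hochberg over 23973 genes and called under 0.05. The step was tested on simulated data. Replicates are separate mice, and the main fit left out none of their libraries.

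Named were the 8 genes, Mpo, up to 3 called genes per list or else its most abundant, markers at 0, and the 10 genes most like the mean of the tested members. Members and lists were chosen with earlier results of these data known. Alternatives included edgeR 4.0.16 and DESeq2 1.42.0 on recovered reads, TMM scaling, other pseudocounts and filters, narrower sample sets, the replicate number as a block, the Mpo level as a covariate, and each library left out.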

Additional observations from a re-analysis of the deposited data

Results flagged for a closer look

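In each group of 4 or 8 libraries the distance of the highest or lowest value from its nearest neighbour was set against the range of the group. Of 27 groups of values examined, 5 held a library far from the rest. The cutoffs used give about 1 in 20 by chance for independent and normally spread values. The values here are skewed counts and most of the 5 flags are of the same library, so that rate does not hold for them. HEM replicate 13 of 13 months was far above the others for Col1a1 (34597, next 18102), Ibsp (835, next 213), Bglap (426, next 23.5) and Bglap2 (74.6, next 4.87). WT replicate 7 of 13 months was far below the others for Alpl (6997, next 11049).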

How the results depend on the processing

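Of the bone genes, 1 was called at 13 months. The count was 0 with a pseudocount of 10, with a filter at 50, with Mpo as a covariate and without the 3 libraries that stand apart, and ran from 0 to 2 with 1 library left out. From 3 to 13 months in HEM 2 were called. The count was 1 for the compared groups alone and without HEM replicates 12 and 13 together, 0 with Mpo as a covariate and without the 3 libraries, and from 0 to 3 with 1 library left out, and it was 3, with Ibsp, by DESeq2 and with a pseudocount of 0.5. DESeq2 called 1 for age in WT and 1 for the difference between the ages, where limma called 0. The filter at 50 left Ibsp untested, and causes of the other shifts were not tested.

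Numbers in the labels do not pair the mice, which differ between groups, and the correlation of deviations of same-numbered libraries ran from -0.07 to 0.17. With the replicate number as a block, fitted on the 13 libraries whose number occurs in more than 1 group, which leaves out HEM replicates 11, 12 and 13, 0 bone genes were called at 13 months and 0 for age in HEM. It called 0 of 23973 genes in both, with 2711 and 2985 at an unadjusted p under 0.05 (limma), where the fit without it called 2918 and 388, and Ibsp differed by 1.54 (adjusted p = 0.514, limma) at 13 months. Under this block Col1a1 (-0.33), Bglap (-0.47) and Dmp1 (0.0053) changed sign at 13 months, Col1a2 (-0.030), Bglap (0.45) and Sp7 (-0.032) at 3 months, and Bglap (1.69) for age in WT, none of them called in the main test.

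Other uncalled values also changed sign. With Mpo as a covariate these were Col1a1 (-0.56), Bglap (-0.96) and Sp7 (-0.084) at 13 months, and Col1a1 (0.063), Ibsp (0.54) and Bglap (1.24) for age in WT. Without HEM replicates 12 and 13 they were Col1a1 (-0.16) and Sp7 (-0.038) at 13 months. Without the 3 libraries Col1a2 at 3 months (-0.000157) and Sp7 for age in HEM (0.10) did, and Bglap at 3 months was 0.13 by edgeR and 0.11 by DESeq2. With 1 library left out, values at 13 months ran from -0.18 to 0.21 for Col1a1 and -0.094 to 0.25 for Sp7. At 3 months they ran from -0.14 to 0.26 for Col1a2, -1.37 to 0.040 for Bglap, -0.036 to 0.24 for Sp7 and -0.10 to 0.18 for Alpl, and for age in WT from -0.67 to 0.34 for Bglap and -0.34 to 0.0055 for Sp7. TMM scaling moved no median of all genes by over 0.01 and changed no count of bone genes called. The low counts of Ibsp, Bglap and Bglap2 limit what can be told of them.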
